A study of Mus musculus with 8 samples.

Results

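The helper lineage-defining transcription factors are 10 genes among the 23361 gene symbols of the FPKM table, taken by their symbols: Tbx21, Eomes, Hlx, Runx3, Gata3, Maf, Zbtb32, Bcl6, Prdm1 and Zbtb7b. All 10 were found in the table. They were compared between 4 libraries of Nrp-1+ iTreg and 4 libraries of Nrp-1- iTreg. Relative to Nrp-1- iTreg, the level of Zbtb32 in Nrp-1+ iTreg was 76.6% higher, that of Prdm1 fell by 25.1% and that of Runx3 fell by 9.53%, and none of the other 7 factors passed the test, where 40.9% of all tested genes passed. The call of Runx3 was lost when short RNA genes were taken out and libraries rescaled (adjusted p = 0.177).

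A naive CD4+ T cell that is activated takes on one of several helper programmes, and each programme depends on a small number of transcription factors that switch on its own genes and hold back the others. T-bet, encoded by Tbx21, drives Th1 cells and their production of interferon-γ, GATA3 drives Th2 cells and their production of IL-4, IL-5 and IL-13, and Bcl6 drives follicular helper T cells. Blimp-1, encoded by Prdm1, opposes Bcl6 and marks effector cells, including effector regulatory T cells, in which IL-10 is one of its known targets. Regulatory T cells can carry low amounts of these same factors together with Foxp3.

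iTreg are regulatory T cells made in culture. Naive CD4+ T cells of male wild-type B6 mice carrying a Foxp3-RFP reporter, aged 7 to 8 weeks, were stimulated with anti-CD3/CD28 beads, IL-2 and TGF-β at 2 ng/ml, and living CD4+ Foxp3-RFP+ cells were then sorted by surface Nrp-1. Both groups thus share the reporter allele, the TGF-β treatment and the Foxp3 gate, and differ only in the Nrp-1 gate; they model regulatory T cells induced in vitro, without a tissue environment. Sources differ on the culture: cells were sorted on day 3 with 10 ng/ml of IL-2 according to the methods, but the labels name day 5 as well as 3 culture days, and 50 U/ml of IL-2. The 4 libraries of a group are labelled as biological replicates, but no source ties them to single mice or cultures, so the p-values measure the spread between these libraries.

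The sorted gene Nrp1, encoding neuropilin-1, had 21.5 ± 0.709 FPKM in the Nrp-1+ libraries and 4.95 ± 0.262 FPKM in the Nrp-1- libraries (mean ± SD, n = 4 per group, as throughout), and Foxp3 had 116 ± 3.72 and 109 ± 1.20 FPKM. Cd4 was at 315 ± 4.78 and 325 ± 11.7 FPKM, and Cd8a lay between 0.0169 and 0.111 FPKM in all 8 libraries. The other CD8 marker, Cd8b1, was present, and both together summed to 7.10 to 8.78 FPKM in the Nrp-1+ and 9.33 to 11.4 FPKM in the Nrp-1- libraries. The depth, read from the size of the smallest steps between FPKM values, was 0.810 to 1.24 times that of Nrp-1+ replicate 1 in all libraries. All 20 genes of a proliferation list were higher in Nrp-1+ iTreg, with a summed level of 2541 to 2603 FPKM against 1405 to 1425 FPKM (Mki67 at 82.3 against 46.3 FPKM, Top2a at 346 against 173 FPKM), and their part in the differences of the lineage factors was not tested. Most markers of other cells were low. The 5 B cell markers summed to 0.193 to 0.867 FPKM over the 8 libraries, with Ms4a1 and Pax5 listed at 0 in all of them, the 4 dendritic cell markers to 0.104 to 0.377 FPKM and the 4 NK cell markers to 0.743 to 1.23 FPKM. The 5 myeloid markers summed to 6.46 to 7.22 FPKM in Nrp-1+ iTreg and 5.41 to 6.23 FPKM in Nrp-1- iTreg, nearly all from Itgam, and the stromal markers, nearly all from Pecam1, which T cells can also express, to 58.2 to 61.4 and 60.0 to 66.6 FPKM. Of the erythroid markers, 3 of 4 were in the table, with a sum of 5.50 to 7.59 against 2.04 to 3.34 FPKM, nearly all from Hba-a1, while Alas2 stayed under 0.0806 FPKM. The part of these markers in the results was not tested, and in bulk samples fewer cells expressing a gene and less RNA per cell cannot be told apart.

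The factors fell into a high and a low set. Ordered by mean level over the 8 libraries, Zbtb7b was highest with 58.9 FPKM, followed by Gata3 with 48.6 and Runx3 with 38.2 FPKM. FPKM divides by transcript length, so levels can be set beside each other between genes. Maf followed with 5.18 FPKM, Bcl6 with 4.45, Prdm1 with 2.31, Zbtb32 with 2.31, Tbx21 with 1.11, Eomes with 0.721 and Hlx with 0.101 FPKM. Most neighbours in this order were separated in every library. The exceptions were Maf and Bcl6, whose ranges over the 8 libraries overlapped although Maf was the higher one in 7 of 8, and Tbx21 and Eomes, whose ranges overlapped although Tbx21 was higher within each of the 8 libraries. Prdm1 and Zbtb32 could not be ordered over all libraries, since Prdm1 was the higher one in 4 of 8. Thus in both groups the CD4 lineage factor, the Th2 factor and Runx3 stood at no less than 35.2 FPKM, and the other 7 factors at no more than 5.78 FPKM.

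**Figure D1:**
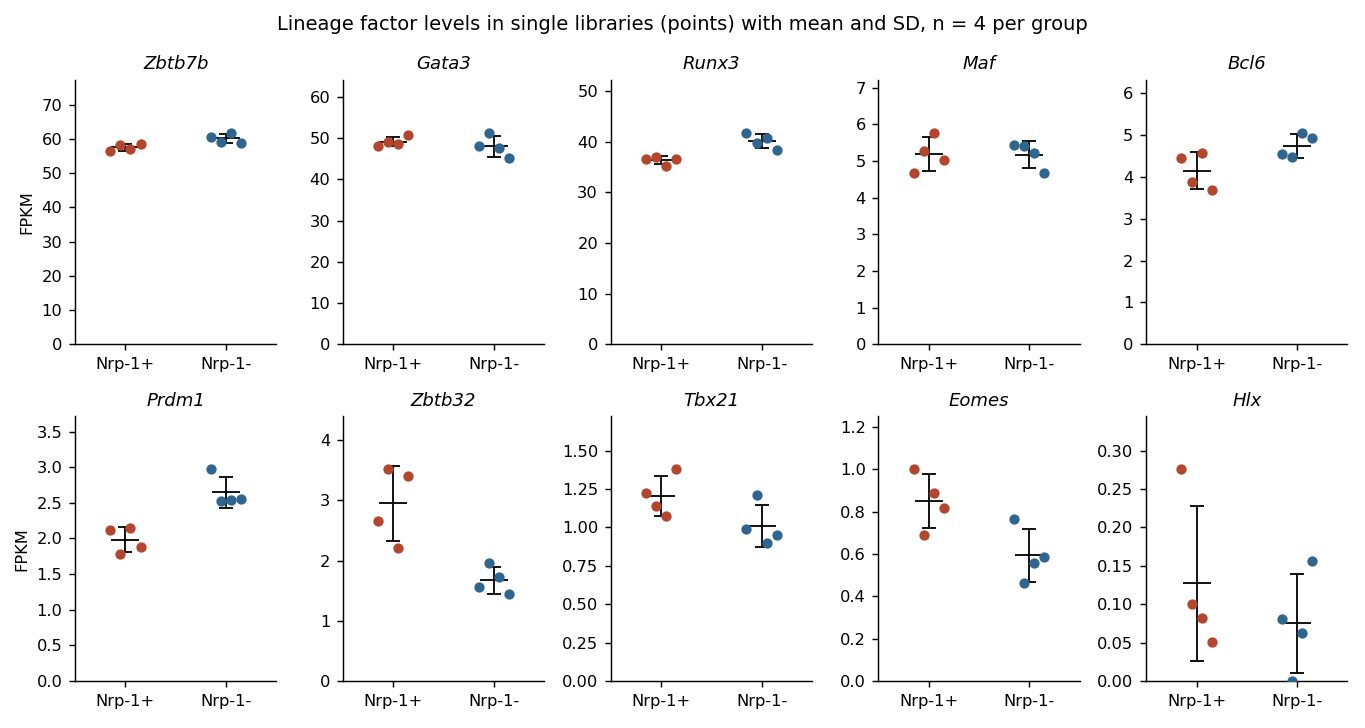
Level in FPKM (vertical axes, each from 0 with its own scale) of the 10 lineage factors in Nrp-1+ iTreg (red) and Nrp-1- iTreg (blue); points are single libraries, horizontal bars the mean and whiskers the SD, n = 4 per group. Zbtb32 is higher in all 4 Nrp-1+ libraries, from 2.22 to 3.52 FPKM against 1.45 to 1.95 FPKM, whereas Prdm1, Runx3 and Zbtb7b are lower in all 4.

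Genes with a mean of at least 1 FPKM over the 8 libraries, 10467 in all, were tested together by limma on log2(FPKM + 1), and a gene was called at a Benjamini-Hochberg adjusted p under 0.05 over all of them. On this scale fold changes of low genes are understated. Of the 10 factors, 8 passed the filter on low levels. Of these, 3 were called, whereas 40.9% of all tested genes were called, so the share among the factors is near the background. Zbtb32 was the one called higher, where 20.9% of all tested genes were, and Prdm1 and Runx3 were the 2 called lower, where 20.0% were. The groups did not overlap for 4 of the 8, namely these 3 and Zbtb7b, against 39.5% of all tested genes. The median log2 fold change of the 8 was -0.031, against -0.016 over all tested genes. Without short RNA genes and with each library rescaled to its remaining sum, 4011 genes were called and 73.4% of the calls were higher, against 51.1% of the 4282 calls as deposited, and the median over all genes moved to 0.043. The median absolute change of the 8 of 0.14 on the log2 scale stood beside 0.12 for all tested genes and 0.22 for all 4282 called genes.

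**Figure D2:**
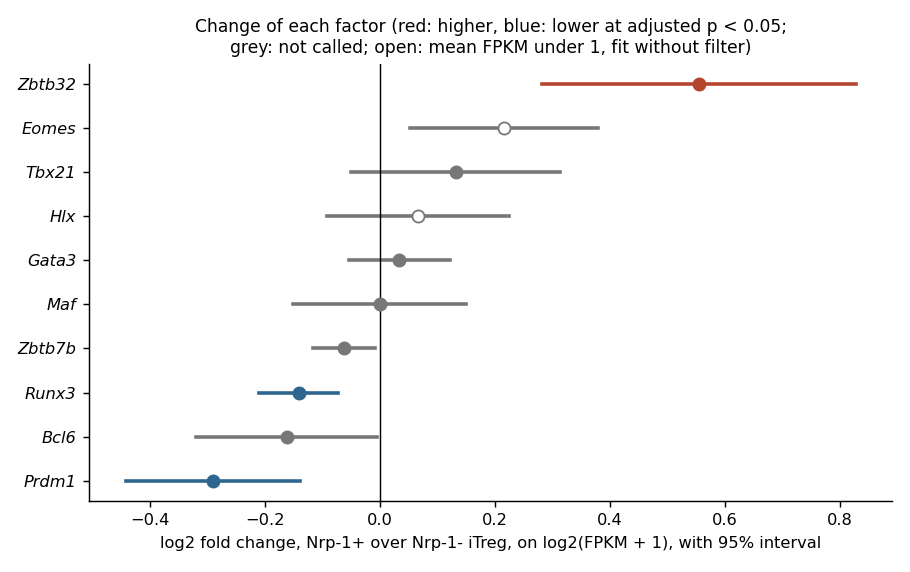
Log2 fold change of each lineage factor, Nrp-1+ over Nrp-1- iTreg (horizontal axis, on log2(FPKM + 1)), with its 95% interval from limma, 4 libraries per group; red marks higher and blue lower at an adjusted p under 0.05, grey not called, and open points the 2 factors with a mean under 1 FPKM, from the fit without a filter. Only the intervals of Zbtb32, Prdm1 and Runx3 belong to called genes, although those of Eomes, Bcl6 and Zbtb7b also leave out 0.

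For the called factors, the start regions that hold motif matches are shown, so that the letters behind each match can be read. They come from RefSeq windows on GRCm38.p6 that run from 250 bases before to 50 bases after a transcript start, read 5′ to 3′ on the gene's strand. Capitals mark matches on either strand to the RUNX motif TGTGGT or to the MAF motif TGCTGA. The first is the window of Runx3 on the plus strand at chr4:135120395-135120694, around the upstream start of the gene. Both others are windows of Zbtb32 on the minus strand, at chr7:30592893-30593192 and chr7:30598860-30599159.
Runx3 upstream start: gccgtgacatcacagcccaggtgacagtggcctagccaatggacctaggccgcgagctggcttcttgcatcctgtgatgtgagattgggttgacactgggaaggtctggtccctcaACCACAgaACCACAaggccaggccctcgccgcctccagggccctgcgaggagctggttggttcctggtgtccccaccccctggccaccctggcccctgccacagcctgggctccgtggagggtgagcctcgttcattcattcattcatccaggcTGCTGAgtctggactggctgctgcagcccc
Zbtb32 start at the lower coordinate: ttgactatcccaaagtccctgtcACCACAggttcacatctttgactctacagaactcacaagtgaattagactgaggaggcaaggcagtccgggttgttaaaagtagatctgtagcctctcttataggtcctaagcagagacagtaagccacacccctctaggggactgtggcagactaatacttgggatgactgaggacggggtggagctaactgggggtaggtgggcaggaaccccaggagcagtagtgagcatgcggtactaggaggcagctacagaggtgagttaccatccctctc
Zbtb32 start at the higher coordinate: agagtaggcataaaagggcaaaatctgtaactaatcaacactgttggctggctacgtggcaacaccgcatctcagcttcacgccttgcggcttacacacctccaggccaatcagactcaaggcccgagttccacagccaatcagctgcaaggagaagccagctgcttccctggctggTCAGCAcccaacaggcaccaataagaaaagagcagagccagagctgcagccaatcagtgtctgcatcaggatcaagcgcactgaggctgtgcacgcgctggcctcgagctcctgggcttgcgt

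The Runx3 window held 2 RUNX matches and 1 MAF match, the first Zbtb32 window 1 RUNX match and the second Zbtb32 window 1 MAF match. The other Runx3 window, at chr4:135152295-135152594, and the Prdm1 window, at chr10:44458699-44458998 on the minus strand, held none of the 6 motifs searched. Among the 13 windows of 9 factors, 3 held the RUNX motif and 3 the MAF motif, whereas 16.8% and 19.5% of all 32851 windows of that table did. The motif TTCNNNGAA, which Bcl6 and STAT factors share, lay in 2 of the 13, both of them windows of Bcl6 itself, with 3 matches in one and 1 in the other, and in 8.30% of all windows. No window of a factor held the GATA motif AGATAA, the T-box motif GGTGTGA or the Blimp-1 motif GTGAAAG, which 11.2%, 3.98% and 4.24% of all windows held. All motifs were searched on both strands, none overlapped with another in the windows printed, and a match describes letters and not binding.

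The Th1 side was examined first. Tbx21 (chromosome 11, 97098007 to 97115331 on GRCm38, as all positions of genes here) had 1.22, 1.14, 1.07 and 1.38 FPKM in Nrp-1+ replicates 1 to 4 and 0.990, 1.21, 0.896 and 0.950 FPKM in Nrp-1- replicates 1 to 4. The groups overlapped through Nrp-1- replicate 2, which lay above Nrp-1+ replicates 2 and 3. The means were 1.20 ± 0.132 and 1.01 ± 0.137 FPKM, and the log2 fold change of 0.13 (SE 0.079, adjusted p = 0.218) had a 95% interval from -0.050 to 0.31. These values rest on about 33 to 63 fragments per library, and no difference in T-bet transcripts was detectable at this depth.

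Eomes (chromosome 9, 118478186 to 118486132) encodes Eomesodermin, the relative of T-bet known from cytotoxic and memory T cells. Its levels were 0.999, 0.691, 0.890 and 0.818 FPKM in Nrp-1+ iTreg and 0.765, 0.464, 0.557 and 0.587 FPKM in Nrp-1- iTreg. Nrp-1+ replicate 2 lay below Nrp-1- replicate 1, and all the other Nrp-1+ libraries lay above all Nrp-1- libraries. The mean was 43.2% higher in Nrp-1+ iTreg, but with a mean under 1 FPKM the gene was tested only without a filter, where the log2 fold change was 0.22 (SE 0.070) and the adjusted p was 0.0601. By exact permutation, two-sided, the difference in mean FPKM had p = 0.0571. Both tests missed the threshold, and in 16 of its 20 alternatives Eomes was not called either (limma adjusted p up to 0.146). It was called without Nrp-1+ replicate 2 (adjusted p = 0.0422) and without Nrp-1- replicate 1 (0.0268). It was also called with short RNA genes taken out and libraries rescaled (0.0411) and with a block for the replicate number (0.0149).

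Runx3 (chromosome 4, 135120645 to 135177990) encodes a Runt factor that works with T-bet in Th1 cells and silences Cd4 in the CD8 lineage. It stood at 36.5, 37.0, 35.2 and 36.6 FPKM in Nrp-1+ iTreg and at 41.8, 39.7, 40.7 and 38.4 FPKM in Nrp-1- iTreg. Every Nrp-1+ library lay below every Nrp-1- library, and the spread within a group was small. The means were 36.3 ± 0.782 and 40.2 ± 1.43 FPKM, a log2 fold change of -0.14 (SE 0.030, adjusted p = 0.0064). The exact permutation test gave p = 0.0286, the smallest that 4 libraries against 4 allow. The change ranked 3444 of the 4282 called genes by size. When short RNA genes were taken out and each library rescaled to its remaining sum, the log2 fold change of Runx3 was -0.079 and the call was lost (adjusted p = 0.177). When they were taken out without rescaling, it was -0.14 (adjusted p = 0.00396).

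Hlx (chromosome 1, 184727143 to 184732493), a homeobox factor that acts with T-bet in Th1 cells, was barely detected. It was listed between 0.0504 and 0.276 FPKM in Nrp-1+ iTreg and between 0 and 0.157 FPKM in Nrp-1- iTreg, from about 0 to 12 fragments per library. The groups overlapped (exact permutation p = 0.486), and no difference was detectable at this depth.

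On the Th2 side, Gata3 (chromosome 2, 9857078 to 9887953) was at 48.2, 49.1, 48.7 and 50.7 FPKM in Nrp-1+ iTreg and at 48.1, 51.4, 47.6 and 45.1 FPKM in Nrp-1- iTreg. Both the highest and the lowest library were Nrp-1- libraries, so that the groups overlapped throughout. With about 2282 to 3522 fragments per library this was one of the best measured factors. The log2 fold change was 0.034 (adjusted p = 0.507), with a 95% interval from -0.054 to 0.12.

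Maf (chromosome 8, 115703253 to 115706894) encodes c-Maf, which drives Il4 in Th2 cells and Il10 and Il21 in other helper cells. Its levels of 4.68, 5.26, 5.78 and 5.02 FPKM in Nrp-1+ iTreg lay on both sides of the 5.44, 5.41, 5.21 and 4.66 FPKM in Nrp-1- iTreg. The means were 5.18 ± 0.463 and 5.18 ± 0.360 FPKM (exact permutation p = 0.971), and the 95% interval of the log2 fold change ran from -0.15 to 0.15.

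Zbtb32 (chromosome 7, 30589680 to 30602819) encodes a zinc finger repressor, also called ROG, that is induced by activation and was named for its repression of GATA3. It stood at 2.67, 3.52, 2.22 and 3.40 FPKM in Nrp-1+ iTreg and at 1.55, 1.95, 1.72 and 1.45 FPKM in Nrp-1- iTreg. The lowest Nrp-1+ library, replicate 3, was above the highest Nrp-1- library, replicate 2. The means were 2.95 ± 0.617 and 1.67 ± 0.218 FPKM, a ratio of 1.77, and the log2 fold change was 0.55 (SE 0.12, adjusted p = 0.00664). The 95% interval was 0.28 to 0.83, and the change ranked 491 of the 4282 called genes by size. Within Nrp-1+ iTreg its coefficient of variation was 20.9%, against 2.18% for Gata3, and about 46 to 115 fragments per library were behind its values. Gata3 itself did not pass the test in the same libraries.

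Bcl6 (chromosome 16, 23965050 to 23988866), the repressor that directs follicular helper T cells, had 4.46, 3.87, 4.58 and 3.68 FPKM in Nrp-1+ iTreg and 4.54, 4.47, 5.06 and 4.92 FPKM in Nrp-1- iTreg. Replicates 2 and 4 of Nrp-1+ iTreg were the lowest of the 8 libraries, while replicates 1 and 3 lay among or close to the Nrp-1- libraries. The mean was 4.15 ± 0.439 against 4.75 ± 0.287 FPKM, and the log2 fold change of -0.16 (SE 0.068) did not pass (adjusted p = 0.0922, exact permutation p = 0.114).

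Prdm1 (chromosome 10, 44437174 to 44528558), encoding the repressor Blimp-1, had 2.11, 1.79, 2.15 and 1.88 FPKM in Nrp-1+ iTreg and 2.97, 2.52, 2.53 and 2.56 FPKM in Nrp-1- iTreg. All Nrp-1+ libraries were below all Nrp-1- libraries, and within Nrp-1- iTreg replicate 1 stood above the other 3, which differed little. The means were 1.98 ± 0.177 and 2.65 ± 0.216 FPKM. The log2 fold change was -0.29 (SE 0.066, adjusted p = 0.00859), with a 95% interval from -0.44 to -0.14, and it ranked 1447 of the 4282 called genes by size. Behind the values were about 175 to 357 fragments per library.

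Zbtb7b (chromosome 3, 89377644 to 89393673) encodes ThPOK, the factor that commits thymocytes to the CD4 lineage and holds Runx3 down. It had 56.4, 58.2, 57.2 and 58.7 FPKM in Nrp-1+ iTreg and 60.6, 59.2, 61.9 and 59.0 FPKM in Nrp-1- iTreg. Every Nrp-1+ library was below every Nrp-1- library, but the nearest of them, Nrp-1+ replicate 4 and Nrp-1- replicate 4, differed little. The log2 fold change of -0.062 (SE 0.023) did not pass over all genes (adjusted p = 0.0653), while the exact permutation test of this single value gave p = 0.0286. With short RNA genes taken out and libraries rescaled, no difference was left (log2 fold change 1.64e-05, adjusted p = 1.00).

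Within each library, 4 ratios between pairs of these factors were formed, chosen after the values were seen. Zbtb32 over Prdm1 was 1.26, 1.97, 1.03 and 1.81 in Nrp-1+ iTreg and 0.523, 0.773, 0.679 and 0.567 in Nrp-1- iTreg. Zbtb32 was thus the more abundant of this pair in all 4 Nrp-1+ libraries and the less abundant in all 4 Nrp-1- libraries, which is a restatement of the opposite changes of both genes. Zbtb7b over Runx3 was 1.55 to 1.62 in Nrp-1+ iTreg and 1.45 to 1.53 in Nrp-1- iTreg, without overlap. For each of these ratios the exact permutation p was 0.0286, and 0.0571 after adjustment over the 4 ratios. For Zbtb32 over Prdm1 this p was fixed in advance, since both genes already separated the groups in opposite directions. Bcl6 over Prdm1 was 2.09 ± 0.0913 in Nrp-1+ iTreg and 1.80 ± 0.206 in Nrp-1- iTreg with overlapping groups (exact permutation p = 0.0571, adjusted 0.0762). Gata3 over Tbx21 was 41.2 ± 3.82 and 47.9 ± 4.34, also overlapping (exact permutation p = 0.0857, adjusted 0.0857). No ratio passed after adjustment.

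**Figure D3:**
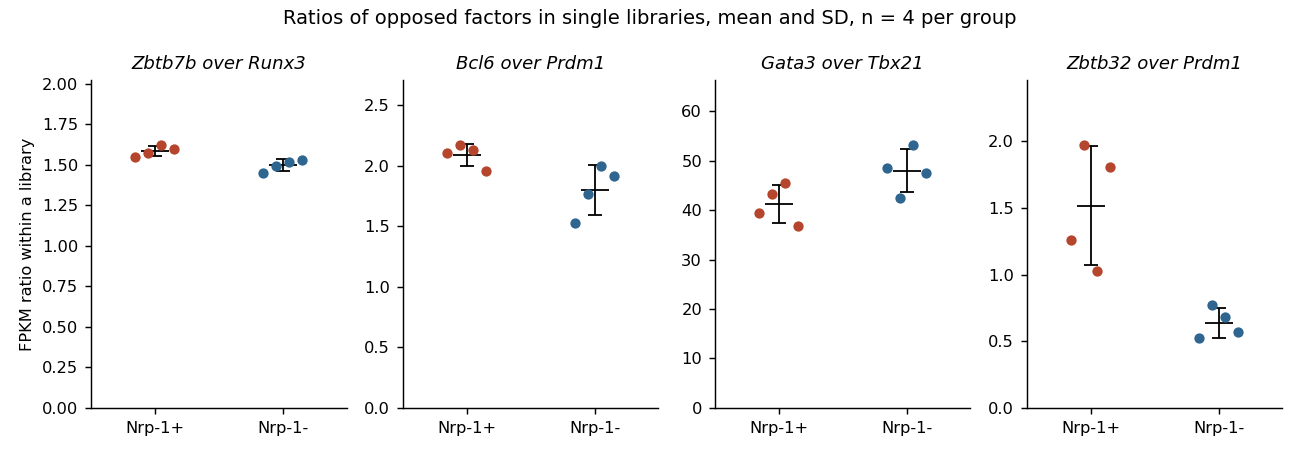
Ratio of the FPKM of paired lineage factors within single libraries (vertical axes, from 0, no unit) in Nrp-1+ iTreg (red) and Nrp-1- iTreg (blue), with mean and SD, n = 4 per group. Zbtb32 over Prdm1 is above 1 in all Nrp-1+ libraries, from 1.03 to 1.97, and below 1 in all Nrp-1- libraries, from 0.523 to 0.773.

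The products that define the helper lineages were nearly absent, so that the levels of the factors stood beside almost no lineage cytokine. Ifng was between 0 and 0.145 FPKM in all 8 libraries, Il21 between 0 and 0.0338 FPKM, and Il13 was listed at 0 throughout. Il5 had a value above 0 in Nrp-1+ replicate 4 alone, of 0.0368 FPKM. Il10, the suppressive cytokine that Blimp-1 and c-Maf promote, lay between 0.0726 and 0.308 FPKM in Nrp-1+ iTreg and between 0.0842 and 0.230 FPKM in Nrp-1- iTreg, with overlap. The authors report low IL-10 in both groups at rest and higher IL-10 in Nrp-1+ iTreg after restimulation. No restimulation is described for the sequenced cells. Il4, the Th2 cytokine, was listed at 0 in all 4 Nrp-1+ libraries and at 0.294, 0.121, 0.448 and 0.132 FPKM in Nrp-1- iTreg. In the fit without a filter its adjusted p was 0.0224, where 25.8% of 16289 genes were called, but the call was lost when any Nrp-1+ library or Nrp-1- replicate 1 was left out (adjusted p from 0.0572 to 0.0655). Only about 1 to 4 fragments per library are behind these values, and no fold is given against a group at 0. Cxcr5, the follicular chemokine receptor, was at 0.424 to 0.825 FPKM in Nrp-1+ iTreg and 0.366 to 0.499 FPKM in Nrp-1- iTreg (adjusted p = 0.119 without a filter), and it was called once Nrp-1+ replicate 1 was left out (adjusted p = 0.0322).

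Around the factors, 129 genes in 6 lists describe the programmes they act in, and 98 of these were tested. Of the 98, 22 were higher and 37 lower in Nrp-1+ iTreg, and 60.2% were called, beside 40.9% of all tested genes. On the log2(FPKM + 1) scale no called gene changed by 2-fold or more and 6 changed by at least 0.5, whereas in mean FPKM Il18rap alone among these 59 called genes did, with a ratio of 2.05. The lists were picked with earlier results of these data known, and their counts are a description. With short RNA genes taken out and libraries rescaled, 2946 of all tested genes were higher and 1065 lower, against 2189 and 2093 as deposited. Beside this shift over all genes, the balance turned in the Th2 list to 4 higher and 1 lower and in the follicular list to 4 higher and 2 lower. In the list of partners and relatives it turned to 5 higher and 4 lower. The Th1 list had 2 higher and 5 lower, the effector list 3 higher and 5 lower and the CD4 or CD8 list 7 higher and 2 lower.

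Of the 16 tested genes of the Th1 programme, 2 were higher and 6 lower (median log2 fold change -0.068). Both higher genes encode the IL-18 receptor: Il18r1 had 29.5 ± 0.978 against 15.4 ± 0.530 FPKM (log2 fold change 0.90, adjusted p = 4.41e-07), and Il18rap had 2.28 ± 0.121 against 1.12 ± 0.193 FPKM (0.64, adjusted p = 3.55e-04). The 6 lower genes included the signal transducer of IL-12, Stat4, with 48.6 ± 2.76 against 59.5 ± 0.894 FPKM (-0.29, adjusted p = 6.74e-04), and Hopx, a homeodomain protein of Th1 and regulatory cells, with 23.1 ± 1.41 against 29.9 ± 0.947 FPKM (-0.36, adjusted p = 3.72e-04). Also lower were the interferon-γ receptor chain gene Ifngr1, which takes up the interferon-γ signal that induces T-bet, and the T cell kinase gene Txk, with log2 fold changes of -0.25 and -0.20. Thus both chains of the IL-18 receptor were higher, and Stat4, Ifngr1 and Txk were lower, while Tbx21 did not pass.

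In the Th2 programme, 9 of 20 genes were expressed enough to be tested, with 2 higher and 3 lower (median 0.032). The chemokine receptors Ccr8, with 23.1 ± 1.92 against 16.7 ± 0.855 FPKM (log2 fold change 0.44, adjusted p = 6.44e-04), and Ccr4, with 11.2 ± 0.290 against 8.92 ± 0.449 FPKM (0.30, adjusted p = 4.98e-04), were higher. Both are also known from regulatory T cells. The IL-4 receptor chain Il4ra fell from 90.0 ± 1.06 FPKM in Nrp-1- iTreg to 81.7 ± 1.31 FPKM in Nrp-1+ iTreg (-0.14, adjusted p = 7.98e-04) and the phosphatase gene Dusp10 was lower by -0.28 (adjusted p = 5.80e-04). The call of Il4ra was lost with the rescaling (log2 fold change -0.075, adjusted p = 0.0972), and Gata3, which acts downstream of this receptor, did not pass in any of its 20 alternatives. Without a filter, 4 genes of this list were higher and 4 lower, where 25.8% of 16289 genes were called in all. Added among the lower ones was Il4, whose values are given above. Added among the higher ones were Il17rb, a subunit of the IL-25 receptor, at 0.997, 1.02, 0.668 and 0.792 FPKM in Nrp-1+ iTreg and 0.382, 0.400, 0.388 and 0.546 FPKM in Nrp-1- iTreg (log2 fold change 0.38, adjusted p = 0.0057), and Il1rl1, the IL-33 receptor gene, at 0.115 to 0.341 and 0.0247 to 0.136 FPKM (0.23, adjusted p = 0.0404). The groups of Il17rb did not overlap. Those of Il1rl1 did, and its call was lost without any library other than Nrp-1+ replicate 3 (adjusted p from 0.0591 to 0.107).

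Of 16 tested genes of the follicular programme, 4 were higher and 7 lower (median -0.049). Pdcd1, which encodes the inhibitory receptor PD-1, had the largest increase, with 5.53 to 7.35 FPKM in Nrp-1+ iTreg and 3.45 to 4.04 FPKM in Nrp-1- iTreg (log2 fold change 0.67, adjusted p = 3.60e-04), followed by the purinergic receptor P2rx7 (0.31, adjusted p = 7.31e-04). Tcf7, which encodes TCF-1, a factor upstream of Bcl6, had 311 ± 2.68 against 364 ± 3.90 FPKM (-0.23, adjusted p = 2.75e-05), a call that quantile normalization ended (log2 fold change -0.21, SE 0.087 against 0.018, adjusted p = 0.0969). The B cell coactivator gene Pou2af1, also expressed in follicular helper cells, was lower by -0.24 (adjusted p = 0.0366), a call that was lost when any of 5 libraries was left out (Nrp-1+ replicates 1 and 2 and Nrp-1- replicates 1, 2 and 3, adjusted p from 0.0509 to 0.0745) and with the rescaling (log2 fold change -0.20, adjusted p = 0.074).

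The effector programme, a list of genes around Prdm1 that does not count Prdm1 itself, had 3 genes higher and 8 lower of 15 tested (median -0.072). Cd44, a surface receptor of activated T cells, had 22.8 ± 0.876 against 19.2 ± 0.508 FPKM (log2 fold change 0.24, adjusted p = 7.36e-04), and Irf4, a factor of effector and regulatory T cells that induces Prdm1, was higher by 0.17 (adjusted p = 0.00584). Lag3, an inhibitory receptor of effector and regulatory cells, had 2.78 ± 0.467 against 4.20 ± 0.571 FPKM (-0.46, adjusted p = 0.0108). The lower genes also held genes of resting and recirculating cells, which are known to be low in effector cells, namely the IL-7 receptor gene Il7r (-0.36, adjusted p = 6.84e-05) and the exit receptor gene S1pr1 (-0.26). The count of lower genes was 5 when Nrp-1+ replicate 2 or 3 or Nrp-1- replicate 1 or 2 was left out.

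For the choice between the CD4 and CD8 lineage, 6 of 19 tested genes were higher and 5 lower (median -0.00032). Cbfb, the partner subunit that every Runx factor needs to bind DNA well, rose from 93.3 ± 1.98 to 118 ± 5.19 FPKM in Nrp-1+ iTreg (log2 fold change 0.34, adjusted p = 1.05e-04) in the same libraries in which Runx3 was lower. The largest increase was that of the maintenance DNA methyltransferase gene Dnmt1 (0.75, adjusted p = 2.54e-07), which is also a gene of dividing cells. Cd8b1, a CD8 subunit gene, had 7.07, 8.11, 7.49 and 8.77 FPKM in Nrp-1+ iTreg and 10.1, 11.3, 9.37 and 9.28 FPKM in Nrp-1- iTreg (-0.31, adjusted p = 0.0119). Satb1, a chromatin organiser that acts on these loci, was lower by -0.17 (adjusted p = 6.48e-04). Cd4 did not pass (adjusted p = 0.255).

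Among partners and relatives of the factors, 5 of 23 tested genes were higher and 8 lower (median -0.076). Zfpm1, encoding the GATA cofactor FOG1, had 29.4 ± 1.03 against 22.3 ± 1.11 FPKM (log2 fold change 0.39, adjusted p = 1.41e-04). Gata1 had 24.3 ± 1.23 against 18.3 ± 0.334 FPKM (0.38, adjusted p = 8.62e-05), beside Gata3, which did not pass, and Gata2, which stayed under 0.0162 FPKM. Gata1 is also an erythroid factor, and it was higher in the same libraries as Hba-a1, whereas Alas2 was at or near 0. Maff, a small Maf protein without an activation domain of its own, was at 3.66, 3.73, 3.51 and 2.33 FPKM in Nrp-1+ iTreg and at 4.66, 5.04, 6.10 and 5.56 FPKM in Nrp-1- iTreg (-0.57, adjusted p = 0.00728), while Maf did not pass. Kdm6b, a histone H3 lysine demethylase that works with T-bet, was lower (-0.35, adjusted p = 6.51e-05), and the opposing methyltransferase gene Ezh2 was higher (0.67, adjusted p = 5.90e-07), again a gene also raised in dividing cells.

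**Figure D4:**
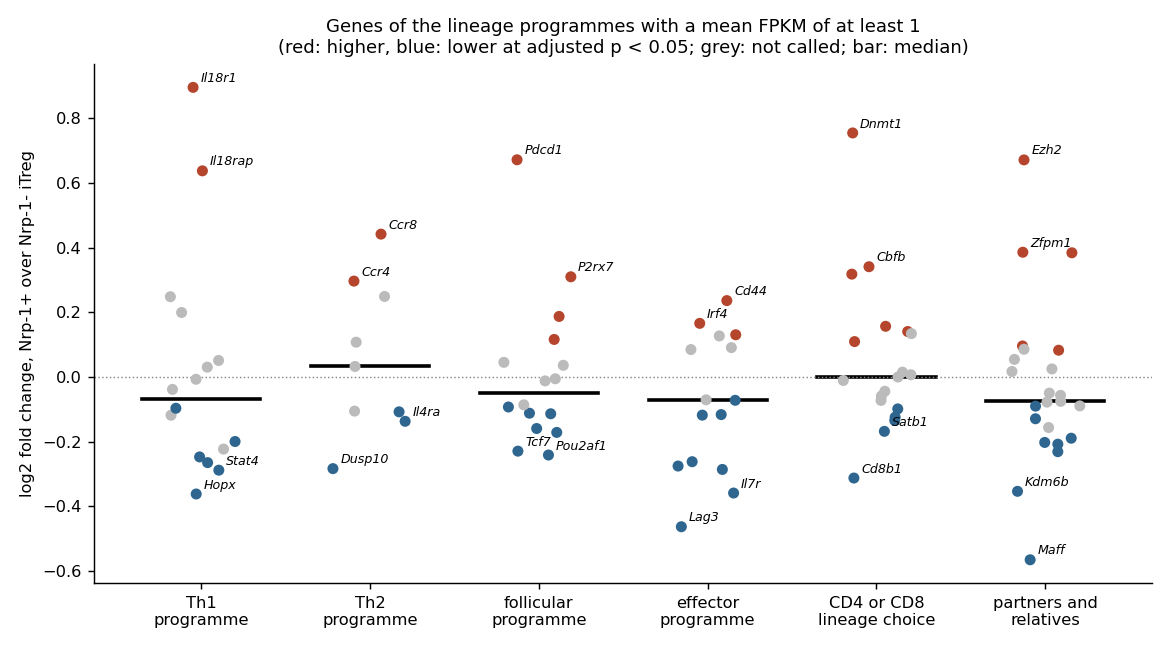
Log2 fold change, Nrp-1+ over Nrp-1- iTreg (vertical axis, on log2(FPKM + 1)), of each tested gene of the 6 lists around the lineage factors (horizontal axis); red marks higher and blue lower at an adjusted p under 0.05, grey not called, and bars the median of each list. List medians lie between -0.076 and 0.032, and single genes such as Il18r1 at 0.90 and Maff at -0.57 lie far from them.

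The genes whose pattern over the 8 libraries was most like that of a factor are given as a description, by Pearson's r on log2(FPKM + 1). For Zbtb32 these were Myo1c (r = 0.977) and Gltp (0.976), for Prdm1 Exosc4 (0.984) and Plekhm1 (0.977), and for Runx3 Gclc (0.977) and Map3k4 (0.976). With the group means taken out, these values were 0.917 and 0.905, 0.922 and 0.890, and 0.882 and 0.882. For the factors that were not called they were Tctn1 (0.973) and Sucla2 (0.970) for Bcl6, Mapk1ip1 (0.978) and Nol6 (0.977) for Zbtb7b, Pura (0.946) and Got2 (0.943) for Tbx21, Fam3c (0.955) and Map3k12 (0.923) for Maf, and Coq6 (0.938) and Polk (0.932) for Gata3. The 8 points share their library depth and the group difference, and the best of all tested genes is high by selection. The number of genes at an r of at least 0.9 was 265 for Runx3, 197 for Prdm1 and 172 for Zbtb32, and for the factors not called it was 67 for Zbtb7b, 22 for Bcl6, 16 for Tbx21, 5 for Gata3 and 4 for Maf.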

How the data were processed

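RNA sequencing data of 8 iTreg libraries, 4 of each Nrp-1 group, were used, and groups and replicate numbers were taken from the labels. The authors used the CLC Genomics Workbench 11.0.1 (per the submitters' processing notes, which also name GRCm38 and mm10) and Cufflinks, and the table they deposited holds FPKM per symbol in each library. Aligner settings and annotation are not given in the sources used here. For the library kit the methods name a directional polyA kit and the labels a different one. Very short genes reach high FPKM because of the division by length: the 794 short RNA genes made up 1.81% to 44.0% of a library's summed FPKM.

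No scaling was added. All genes whose mean was 1 FPKM or more were tested on log2(FPKM + 1), with a pseudocount of 1, by limma 3.58.1 (lmFit, eBayes with an intensity trend, R 4.3.3) with Benjamini-Hochberg adjustment over all 10467 genes. Genes under the filter were taken from the same fit of the 16289 genes with any value above 0. Single values were tested by an exact permutation test, two-sided, over the 70 divisions of the 8 libraries, whose smallest p is 0.0286. Fragment numbers were estimated from steps between low values and GENCODE M21 transcript lengths, are approximate and cover counting error only. No libraries held identical values. Alternatives were pseudocounts of 0.1 and 0.5, no filter, a filter at 5 FPKM, median-of-ratios size factors, quantile normalization, a replicate block, eBayes without trend, array weights, the exact Mann-Whitney test, short RNA genes taken out and each library left out. The fits were tested on simulated data. The other steps ran in Python 3.11.15 (scipy 1.17.1, pandas 2.3.3, numpy 2.4.6, plots with matplotlib 3.10.9), and coordinates are those of RefSeq on GRCm38.p6.

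The members and lists were chosen with earlier results of these data known. Named were the 10 factors, the defining cytokines and receptors, Nrp1 and Foxp3, per list up to 2 genes that rose most and 2 that fell most among called genes without overlap, and the 2 genes most like each factor. Other genes named from the lists (Ifngr1, Txk, Irf4, S1pr1, Gata1, Gata2, Il17rb and Il1rl1) were chosen after their values were seen, as was the setting without short RNA genes and without rescaling. A few genes of the lists are not reported here by name. nTreg libraries were not analysed here.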

Additional observations from a re-analysis of the deposited data

Results flagged for a closer look

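The search covered 130 groups of 4 libraries over most genes named here, and groups holding a value of 0 were left out. A library far from the others of its group by Dixon's test at 95% was found 6 times, where chance gives about 6.5. Prdm1 in Nrp-1- replicate 1 was 2.97 FPKM, against 2.52 to 2.56 FPKM in the other 3 libraries, and without this library the log2 fold change of Prdm1 was -0.25 (adjusted p = 0.0157). Maff in Nrp-1+ replicate 4 was 2.33 FPKM, against 3.51 to 3.73 FPKM in the others. Gclc, the gene most like Runx3 in pattern, was 14.6 FPKM in Nrp-1+ replicate 3, against 15.4 to 15.5 FPKM in the others. Il17rb in Nrp-1- replicate 4 was 0.546 FPKM, against 0.382 to 0.400 FPKM, and Il1rl1 in Nrp-1+ replicate 3 was 0.115 FPKM, against 0.303 to 0.341 FPKM. The erythroid marker Hba-a1 in Nrp-1+ replicate 4 was 7.53 FPKM, against 5.48 to 5.71 FPKM.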

How the results depend on the processing

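Zbtb32 and Prdm1 kept their direction and stayed past the threshold under every limma alternative run for them, with adjusted p from 0.000229 to 0.0202 and from 0.0048 to 0.0209. So did Runx3, except with the rescaling given in the report. Zbtb7b did not pass by limma (adjusted p from 0.054 to 1.00). The exact Mann-Whitney p was 0.0286 for these 4 genes, which is unadjusted and the smallest that 4 against 4 libraries allow. Tbx21, Gata3, Bcl6 and Hlx stayed outside the threshold under every alternative run for them (lowest adjusted p 0.102, 0.113, 0.0564 and 0.387). No member was called higher when the filter was raised to 5 FPKM, which leaves out Zbtb32, so the count was 0, and 1 was called lower with that filter, since it leaves out Prdm1. With short RNA genes taken out and libraries rescaled, 1 member was called lower and 1065 genes in all, against 2093, because the rescaling moves every gene of a library by 1 factor. It also turned the signs of Zbtb7b (log2 fold change 1.64e-05, adjusted p = 1.00) and Cd4 (0.018), both not called before or after. The sign of Maf, whose value lies at 0, turned with size factors (0.0051), with array weights (0.017), with that rescaling (0.052) and with single libraries left out (-0.045 to 0.040). With any of the 8 libraries left out, the counts were 1 member higher and 2 lower, and 1965 to 2061 genes higher and 1777 to 1916 lower in all.

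Same-numbered libraries did not deviate together. Without short RNA genes the correlations of their deviations were -0.038, -0.067, -0.081 and -0.108, and no library correlated best with its own number. With all tested genes the correlations were -0.537, -0.02, 0.01 and -0.5. This does not settle whether same-numbered libraries came from the same culture, which no source states. With the replicate block, 3606 genes were called, with adjusted p of 0.0174 for Zbtb32, 0.0205 for Prdm1 and 0.0286 for Runx3. Il1rl1 was not called with quantile normalization (0.0574) or array weights (0.0669). Eomes was called with the block (0.0149) and with the rescaling (0.0411), but not in 16 of its 20 alternatives. Pou2af1 was not called with the block (0.0759). Foxp3 was not called with quantile normalization (0.0992) or without Nrp-1+ replicate 2 or Nrp-1- replicates 2 or 3 (0.0525 to 0.0623). With quantile normalization 4 follicular and 5 effector genes were lower, and 3 partners were higher, as with the block. Without a filter 5 effector genes were lower, against 8, and with the filter at 5 FPKM 1 Th1 gene was higher, against 2. The cause of these differences was not tested. About 33 to 63 fragments per library were behind Tbx21, 30 to 71 behind Eomes and 0 to 12 behind Hlx. Runx3 had about 2359 to 3691, and Zbtb32 was called at about 46 to 115. The part of depth in the missing calls was not tested.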
